A study of Caenorhabditis elegans with 12 samples.

Results

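The 6 *mcm* genes of *Caenorhabditis elegans*, *mcm-2* (Y17G7B.5), *mcm-3* (C25D7.6), *mcm-4* (Y39G10AR.14), *mcm-5* (R10E4.4), *mcm-6* (ZK632.1) and *mcm-7* (F32D1.10), were followed by RNA-seq in young adults. They were taken by name as the complete set of subunits of the replicative helicase. They make up 6 of the 45836 genes in the count table, and all 6 were among the 15344 genes with enough reads to be tested. Messenger RNA was compared between *eat-2(ad465)* animals, *nhr-62(tm1818);eat-2(ad465)* animals, *nhr-62(tm1818)* animals and wild-type (N2) animals. There were 3 libraries for each of the 4 genotypes, described by the study as biological replicates. *eat-2* encodes a subunit of a nicotinic acetylcholine receptor in the pharynx, and its mutants pump slowly, eat less and serve as a genetic model of dietary restriction. *nhr-62* encodes a nuclear hormone receptor. The *tm1818* allele deletes the part that encodes the DNA-binding domain and may leave a shorter isoform intact, so it need not remove all *nhr-62* activity. No group was fed a restricted diet: all 4 were grown at 20 °C on OP50 bacteria and synchronized by bleaching. About 300 whole animals per genotype were picked by hand as they became adult and before they carried embryos, so each library mixes RNA of the germ line and of all somatic tissues.

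The MCM proteins form a ring of 6 related subunits that unwinds DNA ahead of the replication fork. In G1, the origin recognition complex (ORC) with CDC-6 and CDT-1 loads the ring onto origins as an inactive double hexamer, a step called licensing, and geminin keeps origins from being licensed again before the next division. Kinases then recruit further proteins that turn the ring into the active helicase, and when forks meet the ring is ubiquitylated and pulled off the DNA. In the adult worm, somatic cells no longer divide, and dividing cells are found in the germ line. Growing oocytes are also loaded with messages and proteins that serve the fast early divisions of the embryo. In *C. elegans*, *mcm-4* is also known as *lin-6*, a gene first described from larvae whose cells fail to replicate DNA. In yeast and mammalian biochemistry, the homologues of MCM-4, MCM-6 and MCM-7 form a subcomplex with helicase activity of its own, those of MCM-2 and MCM-5 flank the gate through which DNA enters the ring, and that of MCM-3 pairs with that of MCM-5.

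The 6 genes are spread over the genome. In the WBcel235 annotation, *mcm-4* lies on chromosome I, *mcm-2* on chromosome II, *mcm-5* and *mcm-6* on chromosome III, and *mcm-3* and *mcm-7* on chromosome V. Their merged exons span 2418 to 2827 bp, of which 2190 to 2643 bp are coding. All but *mcm-5* share 4 to 73 bp of exon with a gene on the opposite strand, and reads over these stretches cannot be assigned to either gene without strand. A small part of the counts of these genes may therefore be missing or belong to the neighbour. The genomic position is not printed here because the reads were counted on an older build.

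Library totals were 18260311 to 44753083 counts, and between 18487 and 19637 genes had a read. The mutated genes were a weak check of the labels. *eat-2* had 1 to 6 reads in *eat-2* libraries and 7 to 20 reads in N2 libraries (log2 fold-change -1.90, adjusted p = 0.0418 by edgeR). *nhr-62* did not differ between *nhr-62* and N2 (log2 fold-change -0.22, adjusted p = 1) or between *nhr-62;eat-2* and *eat-2* (-0.53, adjusted p = 0.0808) past the threshold, and a point mutation or a partial deletion need not lower a whole-gene count.

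The *mcm* genes were well measured. Each had between 4987 and 16881 reads per library, and together they took 0.172% to 0.236% of all counts. Per kilobase of exon, each was above 92.5% to 95.6% of the 14267 tested genes with a known length. Their biological coefficients of variation as fitted by edgeR were 0.068 to 0.092, against a median of 0.135 over all tested genes. Levels below are read counts relative to the library size after TMM scaling (CPM), with the replicate SD and n = 3 for each genotype.

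The summed level of the 6 genes was lowest in *eat-2*. It reached 1702, 1514 and 1788 CPM in *eat-2*, 2047, 2209 and 2152 CPM in *nhr-62;eat-2*, 2132, 2359 and 2302 CPM in *nhr-62*, and 2069, 2485 and 2311 CPM in N2. The *eat-2* libraries lay below all 9 others, and the other 3 genotypes overlapped one another. Because whole animals were sequenced, fewer cells of a type and less RNA per cell cannot be told apart here.

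*mcm-4*, *mcm-6* and *mcm-7*, the genes of the catalytic subcomplex, each showed this separation. *mcm-4* had 223, 187 and 216 CPM in *eat-2*, 295, 294 and 274 CPM in *nhr-62;eat-2*, 296, 298 and 284 CPM in *nhr-62*, and 269, 323 and 300.05 CPM in N2. *mcm-6* had 289, 265 and 314 CPM in *eat-2*, 336, 388 and 384 CPM in *nhr-62;eat-2*, 361, 424 and 411 CPM in *nhr-62*, and 367, 433 and 405 CPM in N2. *mcm-7* had 339.9, 279 and 339.7 CPM in *eat-2*, 401, 421 and 411 CPM in *nhr-62;eat-2*, 409, 446 and 431 CPM in *nhr-62*, and 406, 476 and 453 CPM in N2. In each of these genes the highest *eat-2* library was below the lowest library of any other genotype.

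*mcm-2* and *mcm-5*, which encode the subunits of the gate, and *mcm-3* showed the same separation of *eat-2*, by a narrower margin in *mcm-3*. *mcm-2* had 305, 280.0 and 323 CPM in *eat-2*, 383, 392.04 and 385 CPM in *nhr-62;eat-2*, 406, 437 and 429 CPM in *nhr-62*, and 394, 447 and 416 CPM in N2. *mcm-5* had 257, 239 and 279 CPM in *eat-2*, 293, 335 and 322 CPM in *nhr-62;eat-2*, 322, 362 and 359.7 CPM in *nhr-62*, and 308, 391 and 352 CPM in N2. *mcm-3* had 288, 264 and 315 CPM in *eat-2*, 339, 379 and 378 CPM in *nhr-62;eat-2*, 337, 391.7 and 388 CPM in *nhr-62*, and 325, 413 and 385 CPM in N2. The highest *eat-2* library and the lowest N2 library were thus close together in *mcm-3*, at 315 and 325 CPM. In N2, replicate 1 was the lowest of the 3 libraries in all 6 genes, and in *eat-2*, replicate 2 was.

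**Figure D1:**
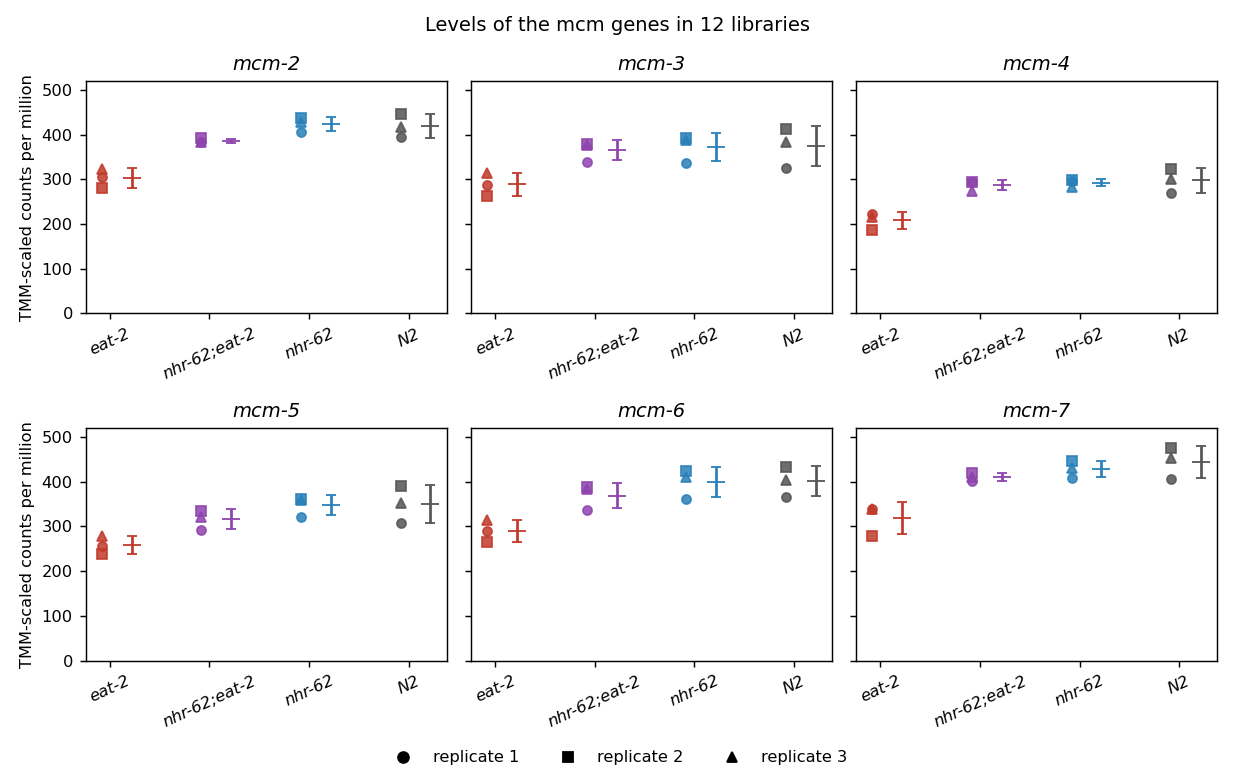
Level of each *mcm* gene (y axis, TMM-scaled CPM, from 0) in the 12 libraries of *eat-2* animals, *nhr-62;eat-2* animals, *nhr-62* animals and N2 animals (x axis). Symbols are single libraries by replicate number, and the bar beside them is the mean ± SD (n = 3); in all 6 genes the *eat-2* libraries lie below those of the other 3 genotypes.

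All 6 *mcm* genes fell in *eat-2* animals relative to N2 animals, each past the threshold. Levels fell by 22.9% in *mcm-3*, the least affected, and fell by 29.9% in *mcm-4*. Of all tested genes, 22.5% were lower at this threshold (adjusted p under 0.05, edgeR quasi-likelihood test with Benjamini-Hochberg adjustment over all tested genes) and 52.4% passed in either direction, so the *eat-2* comparison as a whole is a broad one. *mcm-4* showed the largest difference, with 208.7 ± 19.2 CPM in *eat-2* and 297.6 ± 27.1 CPM in N2 (log2 fold-change -0.51, SE 0.08, adjusted p = 0.000671). *mcm-7* stood at 319.5 ± 35.2 CPM in *eat-2* and 445 ± 36 CPM in N2 (log2 fold-change -0.48, SE 0.09, adjusted p = 0.00124). *mcm-6* averaged 289 ± 25 CPM in *eat-2* and 401 ± 33 CPM in N2 (log2 fold-change -0.47, SE 0.09, adjusted p = 0.00197). These are the subunits of the catalytic subcomplex.

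The remaining subunits were lower by similar amounts. *mcm-2* averaged 303 ± 22 CPM in *eat-2* and 419 ± 27 CPM in N2 (log2 fold-change -0.47, SE 0.07, adjusted p = 0.000462). *mcm-5* averaged 259 ± 20 CPM in *eat-2* and 350.4 ± 42 CPM in N2 (log2 fold-change -0.44, SE 0.10, adjusted p = 0.00316). *mcm-3* had the smallest difference, with 289 ± 26 CPM in *eat-2* and 374 ± 45 CPM in N2 (log2 fold-change -0.37, SE 0.10, adjusted p = 0.00875). The 95% intervals of the 6 log2 fold-changes overlapped one another.

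The median log2 fold-change of the 6 genes was -0.47, against 0.06 over all tested genes, and 6.76% to 12.5% of the tested genes had a lower log2 fold-change than the members. In all 6 genes the 3 *eat-2* libraries lay below the 3 N2 libraries, which was the case for 26.1% of tested genes. None of the 6 passed the criteria that the study used for its gene lists, which add a change over 1.5-fold and a mean normalized count over 10, whereas 3.61% of tested genes passed these and were lower. The size of the fall depends on how libraries are scaled. Scaling by total counts moved the median over all tested genes to 0.28 and that of the *mcm* genes to -0.25, and the *mcm* genes then lay as far below the other genes (-0.53) as under TMM (-0.53). Under that scaling *mcm-2*, *mcm-4* and *mcm-7* still passed, and *mcm-3* (log2 fold-change -0.15, adjusted p = 0.251), *mcm-5* (-0.22, adjusted p = 0.0899) and *mcm-6* (-0.25, adjusted p = 0.0507) did not. Over all genes, 748 of 15344 then passed and were lower.

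The *nhr-62* mutation in the *eat-2* background came with higher levels of the *mcm* genes. In *nhr-62;eat-2* compared with *eat-2*, 4 of the 6 genes rose, against 4.48% of tested genes that were higher and 10.6% that passed in either direction. *mcm-4* averaged 287 ± 12 CPM in *nhr-62;eat-2* and 208.7 ± 19.2 CPM in *eat-2* (log2 fold-change 0.46, SE 0.08, adjusted p = 0.0106). *mcm-2* averaged 387 ± 5 CPM in *nhr-62;eat-2* and 303 ± 22 CPM in *eat-2* (log2 fold-change 0.35, SE 0.07, adjusted p = 0.0164). *mcm-7* averaged 411 ± 10 CPM in *nhr-62;eat-2* and 319.5 ± 35.2 CPM in *eat-2* (log2 fold-change 0.36, SE 0.09, adjusted p = 0.0274). Of the genes that passed, *mcm-6* was nearest to the threshold, with 369 ± 29 CPM in *nhr-62;eat-2* and 289 ± 25 CPM in *eat-2* (log2 fold-change 0.35, SE 0.09, adjusted p = 0.0384).

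The other 2 members of the family missed the threshold with differences of like size. *mcm-3* averaged 365 ± 22 CPM in *nhr-62;eat-2* and 289 ± 26 CPM in *eat-2* (log2 fold-change 0.34, SE 0.10, adjusted p = 0.0502). *mcm-5* averaged 317 ± 22 CPM in *nhr-62;eat-2* and 259 ± 20 CPM in *eat-2* (log2 fold-change 0.29, SE 0.10, adjusted p = 0.0645). The median over the 6 genes was 0.35, against -0.03 over all tested genes. In all 6 the 3 *nhr-62;eat-2* libraries lay above the 3 *eat-2* libraries, as in 16.1% of tested genes, and none passed the additional 1.5-fold criterion, which 0.782% of tested genes passed while higher. The number past the threshold rested on single libraries: it was 0 without *nhr-62;eat-2* replicate 2 (adjusted p between 0.0532 and 0.213), 2 without *nhr-62;eat-2* replicate 3 and 2 without *eat-2* replicate 2, while the log2 fold-changes stayed positive, between 0.24 and 0.51. The number over all genes also fell in these fits. From 688 of 15344 higher, it went to 55 of 15588, 245 of 15618 and 184 of 15553, in that order. With total counts as the scaling, the median over all tested genes moved to -0.14 and that of the *mcm* genes to 0.24, and only *mcm-2* and *mcm-4* passed. Under that scaling 241 of 15344 tested genes were higher.

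The double mutant was set against N2 to ask whether the *mcm* levels of *eat-2* persist without *nhr-62*. No *mcm* gene passed the test in *nhr-62;eat-2* against N2, by edgeR or by DESeq2, and none had an unadjusted p under 0.05. By edgeR, 4367 of the 15344 tested genes had such a p and 11.3% passed. The log2 fold-changes ran between -0.15 in *mcm-5* and -0.04 in *mcm-3*, with adjusted p between 0.286 and 0.830, and with total counts, which moved the median over all tested genes to 0.14, *mcm-3* (0.08) and *mcm-4* (0.06) changed sign. These values do not show that the levels are equal: the 95% interval reached as low as -0.35 for *mcm-5* and was -0.23 to 0.13 for *mcm-4*. *mcm-2* was the only member whose libraries did not overlap, with 383 to 392.04 CPM in *nhr-62;eat-2* and 394 to 447 CPM in N2, a separation in the lower direction seen in 16.9% of tested genes. Both this comparison and the one between *nhr-62;eat-2* and *eat-2* use the same double mutant libraries, and the one between *eat-2* and N2 shares libraries with each of them, so the 3 sets of values are not independent.

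In animals with a wild-type *eat-2* gene, the *nhr-62* mutation moved no *mcm* gene past the threshold. In *nhr-62* compared with N2, the log2 fold-changes ran from -0.05 in *mcm-7* to 0.02 in *mcm-2*, the adjusted p was 1 for all 6 genes by edgeR, and none had an unadjusted p under 0.05 or passed by DESeq2. These values were near 0, and the signs of *mcm-3*, *mcm-5* and *mcm-6* changed with the scaling. Only 0.111% of tested genes passed in this comparison by edgeR, and 489 of 15344 had an unadjusted p under 0.05. The lowest bound of the 6 intervals (95%) was -0.24, for *mcm-7*. *mcm-2*, for example, averaged 424 ± 16 CPM in *nhr-62* and 419 ± 27 CPM in N2.

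In the *nhr-62* background the *eat-2* mutation also moved no *mcm* gene past the threshold. In *nhr-62;eat-2* compared with *nhr-62*, the log2 fold-changes ran from -0.14 in *mcm-5* to -0.03 in *mcm-4*, and the adjusted p from 0.190 to 0.869. No *mcm* gene had an unadjusted p under 0.05 or passed by DESeq2. By edgeR, 5552 of the 15344 tested genes had such a p and 19.4% passed. *mcm-2* was again the member whose libraries did not overlap, with 383 to 392.04 CPM in *nhr-62;eat-2* and 406 to 437 CPM in *nhr-62*, as in 19.3% of tested genes in the lower direction. With total counts, *mcm-3* (0.07), *mcm-4* (0.07) and *mcm-7* (0.03) changed sign in this comparison.

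The difference between these 2 effects of *eat-2* was tested as the interaction of the 2 mutations. The interaction terms of the 6 genes were positive, from 0.30 in *mcm-5* to 0.49 in *mcm-4* on the log2 scale, with a median of 0.35 against -0.03 over all tested genes (0.22 against -0.16 with total counts). None passed by edgeR (adjusted p from 0.128 to 0.334), although all 6 had an unadjusted p under 0.05, as did 2193 of the 15344 tested genes. After adjustment, 0.261% of tested genes passed by edgeR. By DESeq2, *mcm-4* (0.50, adjusted p = 0.0147), *mcm-2* (0.35, adjusted p = 0.0343) and *mcm-7* (0.43, adjusted p = 0.0481) passed, among 355 of 15344 tested genes. The call on the interaction thus changed with the tool.

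**Figure D2:**
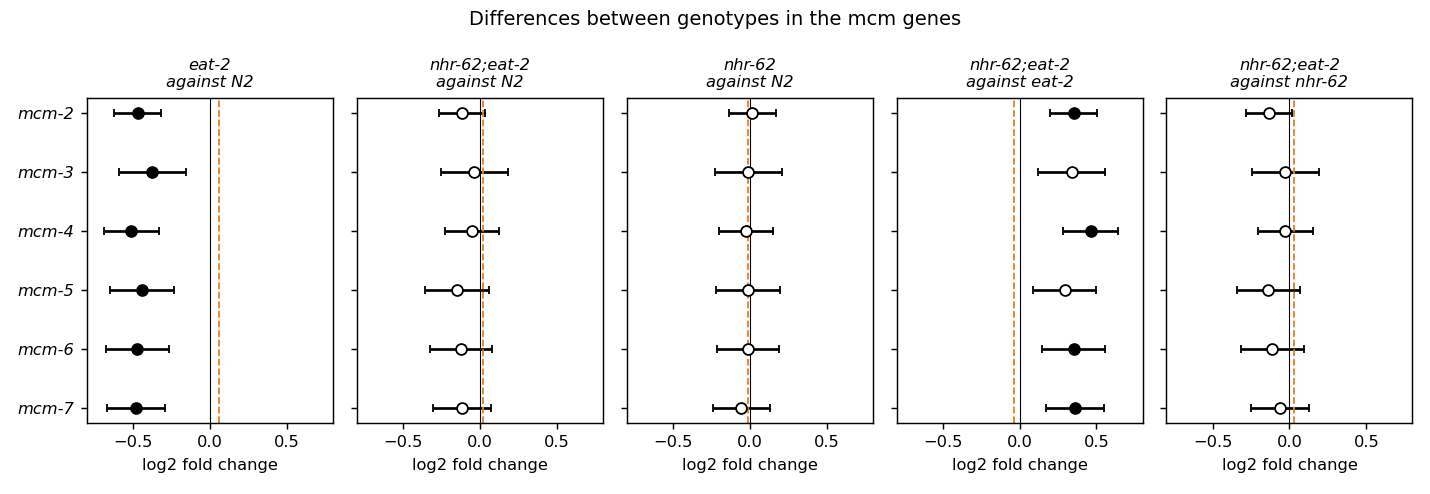
Log2 fold-change of each *mcm* gene (x axis) in 5 comparisons (panels), with 95% intervals from edgeR; filled circles have an adjusted p under 0.05 and the dashed line is the median of all 15344 tested genes. All 6 genes are filled and lower in *eat-2* against N2, 4 are filled and higher in *nhr-62;eat-2* against *eat-2*, and none is filled in the other 3 panels.

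The subunits kept similar, though not fixed, proportions to one another. Per kilobase of exon, so that genes of different length can be compared, *mcm-7* was highest and *mcm-4* lowest in all 12 libraries. In N2 the levels were 182 ± 15 CPM per kilobase for *mcm-7*, 155 ± 13 for *mcm-6*, 148 ± 9 for *mcm-2*, 145 ± 17 for *mcm-5*, 139 ± 17 for *mcm-3* and 114 ± 10 for *mcm-4*. The N2 ranges of the 4 genes between these ends overlapped one another. Within each of the 12 libraries, however, *mcm-6* was above both *mcm-5* and *mcm-3*. As a share of the summed level per kilobase, *mcm-7* took 19.5% to 21.1%, *mcm-6* 16.5% to 18.02%, *mcm-2* 16.3% to 17.5%, *mcm-5* 15.3% to 16.9%, *mcm-3* 15.2% to 17.004% and *mcm-4* 11.98% to 14.3%. The mean share of *mcm-4* was 12.4% in *eat-2*, 13.4% in *nhr-62;eat-2*, 12.8% in *nhr-62* and 12.9% in N2. That of *mcm-3* was 16.7%, 16.5%, 15.9% and 15.8% in the same order. These shifts were not tested.

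**Figure D3:**
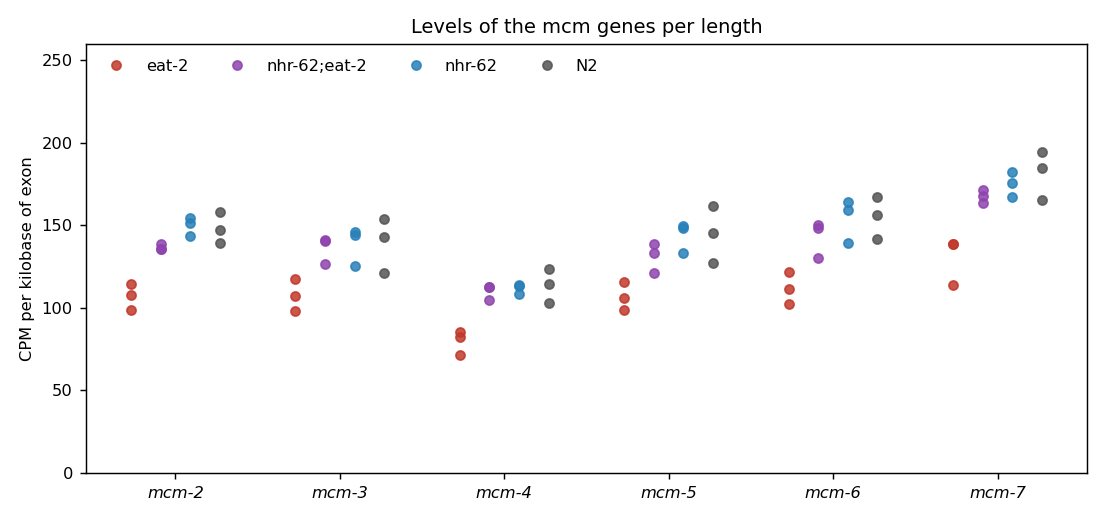
Level of each *mcm* gene per kilobase of exon (y axis, TMM-scaled CPM per kilobase, from 0), with 1 point per library and 3 libraries for each genotype (*eat-2* red, *nhr-62;eat-2* purple, *nhr-62* blue, N2 grey). *mcm-7* is the highest and *mcm-4* the lowest gene in every library.

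Over the 12 libraries the 15 pairs of *mcm* genes had correlations of log2 CPM (Pearson's r) between 0.889 and 0.987. With the genotype means removed, r was 0.499 to 0.983, highest for *mcm-3* with *mcm-5* and lowest for *mcm-4* with *mcm-6*. These values describe libraries that share their depth and scaling, and are given without a test. Of the tested genes, 4.12% had an r over 0.9 to the mean profile of the 6 genes. The 8 genes most like that profile over the 12 libraries were *ptc-1* (r = 0.994), which encodes a patched homologue needed for cytokinesis in the germ line, *ergo-1* (0.993), an Argonaute protein, *dpf-5* (0.990), *unc-59* (0.988), a septin, *grif-1* (0.987), *lin-5* (0.984), a spindle-positioning protein, *acly-2* (0.984), an ATP citrate lyase, and *ccr-4* (0.984), a deadenylase. *ptc-1*, for instance, averaged 602 ± 48 CPM in *eat-2* and 796 ± 59 CPM in N2.

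The other genes of DNA replication were described by lists that follow the order of events. The counts of list genes that fell in *eat-2* against N2 are to be read against the 22.5% of all tested genes that were lower in that comparison. Of the 8 genes of the licensing factors, 7 fell in *eat-2* against N2 and none rose, with a median log2 fold-change of -0.26. *orc-1*, the largest ORC subunit, was at 133, 102 and 129.8 CPM in *eat-2* and at 148, 172 and 159 CPM in N2 (-0.39, SE 0.09, adjusted p = 0.00479). *gmn-1*, which encodes geminin, was at 35.96, 30.9 and 41.1 CPM in *eat-2* and at 42.1, 51.6 and 48.24 CPM in N2 (-0.40, SE 0.11, adjusted p = 0.00868). In both genes the *eat-2* libraries lay below those of N2. *orc-4* (-0.36), *cdc-6* (-0.27), *cdt-1* (-0.25), *orc-3* (-0.22) and *orc-2* (-0.18) also fell, with adjusted p between 0.00191 and 0.0358. *orc-5* did not pass (-0.09, adjusted p = 0.280).

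Genes that act on the loaded ring were lower in *eat-2* as well. Of 10 tested genes of helicase activation, 7 fell and none rose (median -0.27). *psf-1*, a subunit of the GINS complex that joins the MCM ring in the active helicase, had a log2 fold-change of -0.42 (SE 0.09, adjusted p = 0.00390). *dnsn-1*, whose product helps to assemble that helicase, had -0.34 (SE 0.07, adjusted p = 0.00289), and *mus-101*, the TopBP1 homologue, had -0.31 (SE 0.08, adjusted p = 0.00616). Of 8 genes of helicase unloading, 6 fell and none rose (median -0.33). They included *cdc-48.1*, a segregase that extracts ubiquitylated MCM rings from chromatin, at 801, 667 and 777 CPM in *eat-2* and 1077, 1126 and 1159 CPM in N2 (-0.58, SE 0.09, adjusted p = 0.000437). Its near copy *cdc-48.2* (-0.34, adjusted p = 0.00146) and the cofactor *ubxn-3* (-0.45, adjusted p = 0.000279) fell too. Only uniquely placed reads were kept, so reads that fit both *cdc-48* genes equally may be missing from their counts.

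Of 22 genes of DNA synthesis at the fork, 19 fell in *eat-2* and none rose (median -0.28). *rnr-1*, the large subunit of ribonucleotide reductase, stood at 334, 292 and 343 CPM in *eat-2* and at 411, 491 and 470.2 CPM in N2 (-0.50, SE 0.08, adjusted p = 0.000677). *crn-1*, the flap endonuclease, had -0.34 (SE 0.06, adjusted p = 0.00126) and *div-1*, a subunit of DNA polymerase alpha, had -0.32 (SE 0.06, adjusted p = 0.00133). Of 12 genes of mitosis, 10 fell and none rose (median -0.29), among them *plk-1*, a Polo-like kinase (-0.45, adjusted p = 0.000917), *cyb-3*, a B-type cyclin (-0.48, adjusted p = 0.00186), and *knl-1*, a kinetochore protein (-0.39, adjusted p = 0.00101).

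The 12 genes of G1/S control held both directions. In *eat-2*, 8 fell and 1 rose (median -0.28), beside 29.9% of all tested genes that were higher. *cki-1*, an inhibitor of cyclin-dependent kinases that holds cells in G1, rose to 12.2, 8.29 and 9.10 CPM in *eat-2*, against 2.45, 3.03 and 2.99 CPM in N2 (log2 fold-change 1.80, SE 0.19, adjusted p = 7.70e-05). *cdk-4*, a kinase that drives entry into S phase, fell to 6.80, 7.83 and 7.76 CPM in *eat-2*, against 11.01, 12.8 and 11.1 CPM in N2 (-0.64, SE 0.12, adjusted p = 0.00162). *cdc-25.1*, a phosphatase that promotes germ line divisions, had -0.34 (SE 0.08, adjusted p = 0.00361). The histone list gave no result, since only *his-72* and *his-24*, which are not histones made for S phase, had enough reads, and neither passed (adjusted p = 0.246 and 0.265).

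Set beside these lists, the median of the *mcm* genes in *eat-2* (-0.47) was below those of the 6 lists (-0.33 to -0.26). A ratio of sums within a library does not depend on the scaling. The summed *mcm* level was 2.96 to 3.12 times that of the licensing factors in *eat-2* and 3.39 to 3.50 times in N2. Relative to the genes of the fork it was 0.459 to 0.484 in *eat-2* and 0.499 to 0.518 in N2. The *eat-2* and N2 libraries overlapped in neither ratio, nor in those to activation (2.56 to 2.68 in *eat-2* and 2.86 to 3.07 in N2), mitosis (0.695 to 0.750 in *eat-2* and 0.787 to 0.824 in N2) and G1/S control (1.68 to 1.81 in *eat-2* and 1.896 to 2.11 in N2). Relative to the genes of unloading they did overlap, with 0.903 to 0.9497 in *eat-2* and 0.881 to 1.004 in N2. Most of the unloading sum, which averaged 2446 CPM in N2, came from *cdc-48.1* (1121 CPM) and *cdc-48.2* (573 CPM). That ratio is therefore mainly one to the *cdc-48* genes. The counts of list genes that fell depended on the scaling and on the samples in the fit. With total counts they were 0 of 8 for the licensing factors, 0 of 10 for activation, 2 of 8 for unloading, 3 of 22 for the fork, 3 of 12 for mitosis and 1 of 12 for G1/S control. Over all genes, 748 of 15344 were lower with total counts. Without N2 replicate 2 the list counts were 4 for licensing, 3 for activation and 12 for the fork, where 2657 of 15610 tested genes were lower. For activation they were 4 without *eat-2* replicate 2 and 4 without N2 replicate 3. Lower over all genes in these 2 fits were 2836 of 15553 and 2628 of 15644.

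In *nhr-62;eat-2* against *eat-2*, fewer of these genes passed, and those that did were higher apart from *cki-1*. Of all tested genes, 4.48% were higher in this comparison. The median log2 fold-changes were 0.18 for the licensing factors, 0.23 for activation, 0.16 for unloading, 0.22 for the fork, 0.18 for G1/S control and 0.22 for mitosis, against 0.35 for the *mcm* genes. Of the licensing factors, *gmn-1* (0.45, adjusted p = 0.0269) and *orc-3* (0.27, adjusted p = 0.0498) rose, and the other 6 did not pass. Of the fork genes 5 of 22 rose, led by *rnr-1*, which reached 453, 463 and 455 CPM in *nhr-62;eat-2*, against 334, 292 and 343 CPM in *eat-2* (0.50, SE 0.08, adjusted p = 0.00764). *cki-1* fell to 6.57, 5.88 and 6.65 CPM in *nhr-62;eat-2*, against 12.2, 8.29 and 9.10 CPM in *eat-2* (log2 fold-change -0.63, SE 0.18, adjusted p = 0.0474), a call that was lost without 9 of the 12 libraries, left out in turn, with DESeq2 size factors, in a fit of only the genotypes compared and with replicates 2 and 3 only. *cdk-4* rose to 9.77, 12.6 and 11.4 CPM in *nhr-62;eat-2*, against 6.80, 7.83 and 7.76 CPM in *eat-2* (0.59, SE 0.12, adjusted p = 0.0172).

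The rest of the lists gave 2 of 10 genes higher for activation, 2 of 8 for unloading and 5 of 12 for mitosis in this comparison. The 2 of activation were *dnsn-1* and *mcm-10*, which shares a name with the family but is not part of the ring and was picked out after its values were seen (0.36, SE 0.07, adjusted p = 0.0139). These small counts moved with single libraries: without *nhr-62;eat-2* replicate 2 they were 0 for licensing, 1 for activation, 0 for unloading, 1 for the fork, 0 for G1/S control and 0 for mitosis. In that fit 55 of 15588 tested genes were higher. The counts of the fork ran from 1 to 9 over all libraries left out in turn. Leaving out any of the 12 libraries moved at least 1 of these counts by over 1.5 times. Against N2, the only gene of the 6 lists that passed in *nhr-62;eat-2* was *cki-1*, which was still higher (log2 fold-change 1.17, adjusted p = 0.00269). In *nhr-62* against N2 no gene of any list passed.

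**Figure D4:**
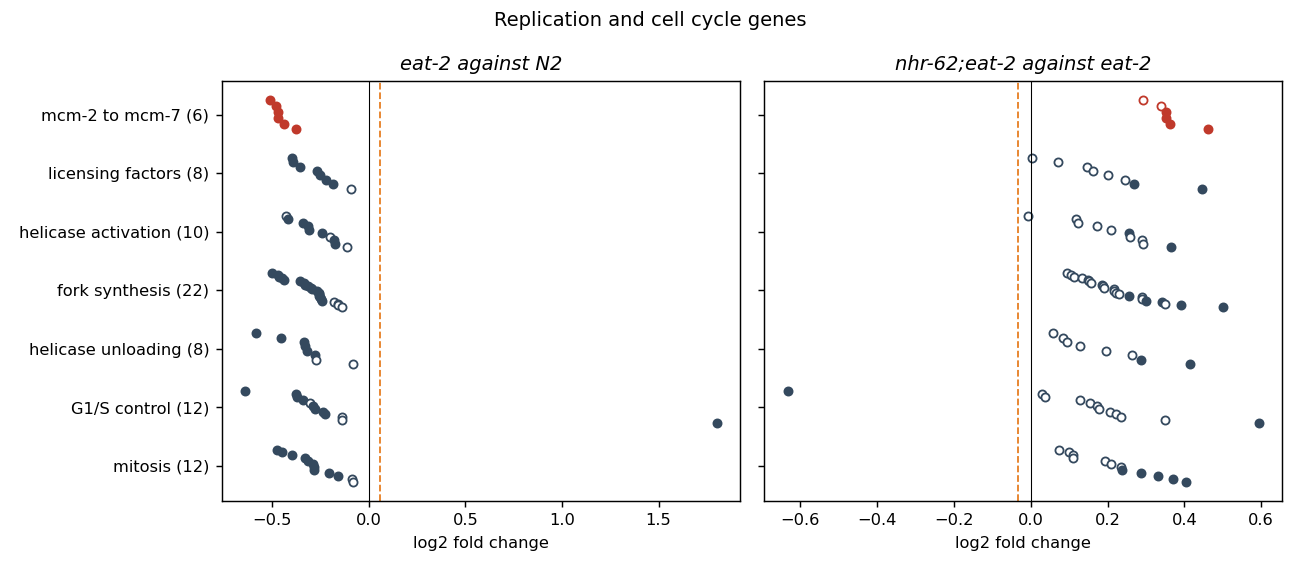
Log2 fold-change (x axis) of the *mcm* genes in red and of the tested members of 6 lists of replication and cell cycle genes, in *eat-2* against N2 and in *nhr-62;eat-2* against *eat-2*; each circle is a gene, the number tested is in brackets, filled circles have an adjusted p under 0.05 and the dashed line is the median of all tested genes. The *mcm* genes lie at -0.51 to -0.37 in the left panel and at 0.29 to 0.46 in the right one, and the gene far to the right in the left panel is *cki-1* at 1.80.

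Tissue markers also differed between the genotypes, in the same libraries as the *mcm* genes. Over all tested genes, 22.5% were lower in *eat-2* against N2 and 4.48% higher in *nhr-62;eat-2* against *eat-2*. Of 17 oocyte and eggshell markers, 16 fell in *eat-2* against N2 (median -0.44), and their summed level was 10261 to 11693 CPM in *eat-2*, 14593 to 15163 CPM in *nhr-62;eat-2*, 15489.5 to 16334.5 CPM in *nhr-62* and 14112 to 16077 CPM in N2. Of 20 markers of germ line proliferation and meiosis, 12 fell in *eat-2* (median -0.21), with sums of 3073 to 3724 CPM in *eat-2*, 3656 to 3890 CPM in *nhr-62;eat-2*, 4038 to 4274 CPM in *nhr-62* and 4099 to 4229 CPM in N2. The sums of both lists thus separated *eat-2* from N2, like the *mcm* genes. This was not particular to these lists. The summed intestine markers, given below, and embryo markers were also lower in every *eat-2* library than in any N2 library. The embryo sums were 68.2 to 80.4 CPM in *eat-2* and 81.5 to 117 CPM in N2. Of 17 oocyte markers, 14 rose in *nhr-62;eat-2* against *eat-2*, and of the 20 germ line markers 3 did. With total counts as the scaling, 10 oocyte and 0 germ line markers fell in *eat-2* against N2, where 748 of 15344 tested genes were lower. Without *nhr-62;eat-2* replicate 2, 5 oocyte and 0 germ line markers rose in *nhr-62;eat-2* against *eat-2*, where 55 of 15588 tested genes were higher.

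Markers of sperm and of neurons went the other way. Of 31 tested sperm markers, 14 rose in *eat-2* against N2 (median 0.62), where 29.9% of all tested genes were higher and 22.5% lower. The sperm markers had sums of 532 to 646 CPM in *eat-2*, 346 to 456 CPM in *nhr-62;eat-2*, 272 to 294 CPM in *nhr-62* and 223 to 480.4 CPM in N2. Of 10 neuron markers, 8 rose in *eat-2* (median 0.58), with sums of 526 to 599 CPM in *eat-2*, 507 to 519 CPM in *nhr-62;eat-2*, 383 to 419 CPM in *nhr-62* and 397 to 418 CPM in N2. The neuron sums of *nhr-62;eat-2* thus lay above those of N2, and below those of *eat-2*. Body wall muscle markers gave 1 of 10 higher and 1 lower (median 0.20). Intestine markers gave 2 higher and 3 lower of 10 (median -0.06). Hypodermis and cuticle markers gave 2 higher and 1 lower of 10, with a median of 0.59, near those of the sperm and neuron lists. In *nhr-62;eat-2* against *eat-2* the hypodermis and cuticle median was -0.56, and none of these markers passed. Embryo markers gave 1 higher and 3 lower of 7 tested in *eat-2* against N2 (median -0.32). The summed intestine markers, which include the yolk gene *vit-2*, took 24838 to 28932 CPM in *eat-2*, 39440 to 50749 CPM in *nhr-62;eat-2*, 53311.5 to 60886 CPM in *nhr-62* and 56413 to 60860.5 CPM in N2. The sperm gene *msd-1* and the embryo gene *med-1* had no read in any library. The part of these tissue differences in the *mcm* values was not tested.

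Within each library, the summed *mcm* level was 0.148 to 0.159 of the oocyte and eggshell sum in *eat-2*, 0.140 to 0.147 in *nhr-62;eat-2*, 0.131 to 0.150 in *nhr-62* and 0.147 to 0.155 in N2, so that the *eat-2* and N2 libraries overlapped. Relative to the sum of the germ line markers it was 0.457 to 0.516 in *eat-2*, 0.526 to 0.589 in *nhr-62;eat-2*, 0.499 to 0.574 in *nhr-62* and 0.495 to 0.606 in N2. These ranges overlapped between *eat-2* and N2 as well, and they did not between *nhr-62;eat-2* and *eat-2*, where *nhr-62;eat-2* was higher. The ratio to the oocyte and eggshell sum also separated *nhr-62;eat-2* from *eat-2*, by a narrow gap and in the opposite direction.

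**Figure D5:**
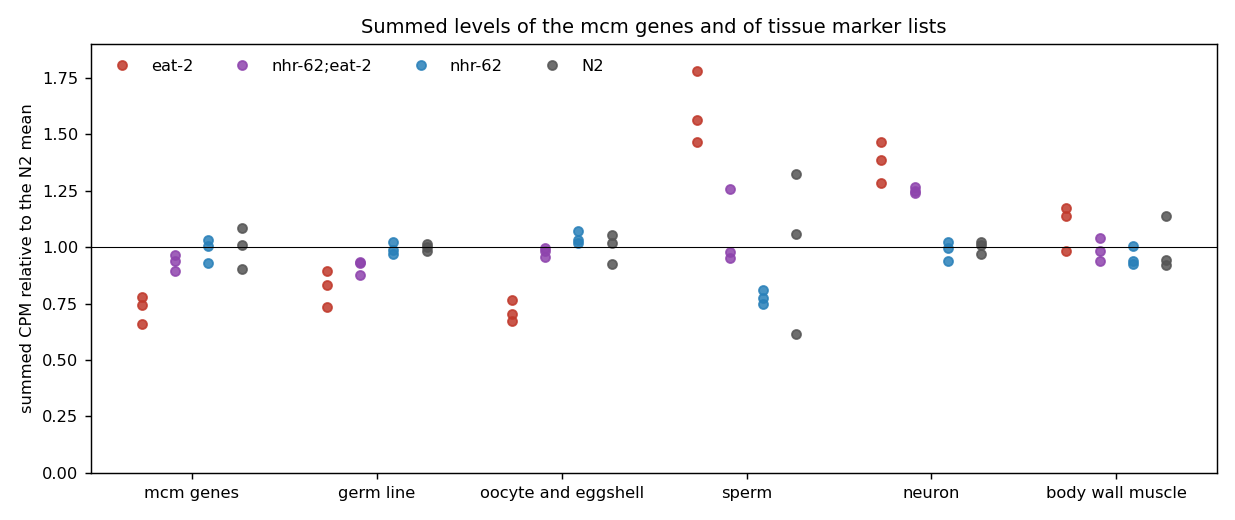
Summed level of the *mcm* genes and of 5 lists of tissue markers (x axis) in each library, as a ratio to the mean of the N2 libraries (y axis, from 0), with 3 libraries for each genotype (*eat-2* red, *nhr-62;eat-2* purple, *nhr-62* blue, N2 grey). In *eat-2* the *mcm* genes and the germ line and oocyte lists lie below 1 and the sperm and neuron lists above it. The intestine, hypodermis and embryo lists are not drawn, and the intestine and embryo sums were also lower in *eat-2* than in N2.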

How the data were processed

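Each of the 12 libraries is represented by a deposited column of counts, the number of reads assigned to each gene. The authors removed adapters from 100 bp single-end reads, placed them with TopHat 1.3 on WBcel215 and its gene models, kept uniquely placed reads and counted with HTSeq. The kit does not mark strand, and whether the counting used strand is not stated in the sources read. The study called genes with DESeq at a false discovery rate under 0.05 and a fold over 1.5, with a normalized mean count over 10.

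The table lists 45836 genes, and its 1 blank line was dropped. RefSeq names for WBcel235 matched 97.1% of the genes, and exon lengths came from the Ensembl annotation of that build. For testing, edgeR 4.0.16 (R 4.3.3) was run with filterByExpr, TMM scaling and a quasi-likelihood model with 1 mean for each genotype over all libraries. Benjamini-Hochberg adjustment covered the 15344 genes kept. A standard error is the absolute log2 fold-change divided by the root of the F statistic. The model was checked on simulated counts, but the outcome is not given here and no error rate is claimed from it. Over all genes, replicates of a genotype varied 10.2 to 60.4 times more than sampling of reads alone would give.

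Alternatives were DESeq2 1.42.0 (its size factors, and its test), total counts, no filter, only the genotypes compared, replicates 2 and 3 only, the replicate number as a block, the study's criteria, and leaving out each library. The genes named are the 6 *mcm* genes, all licensing factors, the 3 genes of each other list with the smallest p in *eat-2* against N2, and the 8 genes most like the *mcm* profile. The *mcm* genes and the lists were chosen with earlier results of these data known. The lists named 200 genes, of which *cdc-45* and *sld-3* were not matched and are not used here. Counts of list members under the alternatives were added after the values were seen.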

Additional observations from a re-analysis of the deposited data

How the results depend on the processing

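All 6 *mcm* genes kept their direction in *eat-2* against N2 and in *nhr-62;eat-2* against *eat-2* under every alternative run, leaving out each library included. In *eat-2* against N2 the number past the threshold stayed at 6 whichever library was left out and was 3 with total counts and 0 with the 1.5-fold criterion of the study. In *nhr-62;eat-2* against *eat-2* it ran from 0 to 6 with libraries left out in turn, and was 2 with total counts and 0 with the 1.5-fold criterion. Over all genes, the number higher there ran from 55 of 15588 without *nhr-62;eat-2* replicate 2 to 927 of 15633 without N2 replicate 1. For the interaction the number of *mcm* genes past the threshold was 3 by the DESeq2 test and 0 with libraries left out. All reversals were of differences that had not passed, within 0.08 of 0 on the log2 scale. In *nhr-62* against N2, DESeq2 size factors gave 0.0050 for *mcm-3*, 0.0041 for *mcm-5* and 0.0045 for *mcm-6*. The DESeq2 test gave 0.0050 for *mcm-3*, 0.0041 for *mcm-5* and 0.0044 for *mcm-6*. No filter gave 0.023 for *mcm-3*, 0.0086 for *mcm-4*, 0.022 for *mcm-5* and 0.022 for *mcm-6*. Total counts gave 0.011 for *mcm-3*, 0.0097 for *mcm-5* and 0.011 for *mcm-6*, and replicates 2 and 3 only gave 0.0092 for *mcm-6*. With libraries left out these values ran from -0.0043 to 0.065 for *mcm-2*, -0.079 to 0.068 for *mcm-3*, -0.069 to 0.039 for *mcm-4*, -0.074 to 0.077 for *mcm-5* and -0.049 to 0.067 for *mcm-6*. In *nhr-62;eat-2* against N2, total counts gave 0.077 for *mcm-3* and 0.061 for *mcm-4*, and libraries left out gave -0.12 to 0.039 for *mcm-3* and -0.11 to 0.011 for *mcm-4*. In *nhr-62;eat-2* against *nhr-62*, total counts gave 0.065 for *mcm-3*, 0.068 for *mcm-4* and 0.031 for *mcm-7*, and libraries left out gave -0.095 to 0.0095 for *mcm-3*. The cause was not tested.

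Over all genes in *eat-2* against N2, 4581 passed higher and 3457 lower with TMM, 4338 and 4047 with DESeq2 size factors, and 6255 and 748 with total counts. In *nhr-62;eat-2* against *eat-2*, 688 passed higher and 936 lower with TMM, 882 and 842 with DESeq2 size factors, and 241 and 1958 with total counts. The interaction passed in 40 genes by edgeR and 355 by DESeq2. The labels do not say whether libraries of the same replicate number belong together, and the values did not settle it. The median correlation of deviations was 0.041 for same-numbered pairs and -0.045 for other pairs. Of the 18 same-numbered pairs, 7 had a correlation over 0.1, and 6 of 12 libraries correlated best with their own number. With the number as a block, 6 *mcm* genes passed in *nhr-62;eat-2* against *eat-2* (4 without it), and no other count of *mcm* genes changed. Over all genes 2650 passed with the block (1624 without it). Of these, 950 were higher like the *mcm* genes (688 without the block) and 1700 lower (936 without it). In the same comparison the fork list had 12 genes higher by the DESeq2 test and 9 with DESeq2 size factors. Over all genes, 1454 and 882 of 15344 were then higher, against 688 in the main fit. A fit of only the genotypes compared lowered the lists in *eat-2* against N2 to 4 licensing, 4 activation and 11 fork genes. In that fit 2493 of 14893 tested genes were lower, against 3457 of 15344 in the main fit.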
